A study of Rattus norvegicus with 9 samples.

Results

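A set of 8 genes that carry 3 routes of signalling to microglia was followed through the rat medial prefrontal cortex (mPFC), a frontal cortical region that is sensitive to stress. They were chosen by name, as ligands set beside their receptors and an adaptor: Cx3cl1 with Cx3cr1, Il34 and Csf1 with Csf1r, and Apoe with Trem2 and Tyrobp. All 8 of the 8 names were found once among the 34463 genes measured, and all 8 were among the 16159 genes with a mean of at least 0.5 FPKM (fragments per kilobase of gene, scaled to the depth of the library) that were tested. The RNA came from mPFC tissue of male Sprague-Dawley rats in 3 groups of 3 libraries. The PHL + CMS group received phloretin (PHL), a dihydrochalcone from apples, and was exposed to chronic mild stress (CMS). The Veh + CMS group received the vehicle and CMS, and the Veh group the vehicle without CMS, and no library had PHL without CMS. Stress lasted 3 weeks. The dose chosen for work in vivo was 20 mg/kg after pre-treatment for 2 weeks, which the labels of these libraries do not repeat. It is not stated that each library came from its own animal, and the p-values therefore cover only the spread among these 9 samples, some of which may be technical.

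Microglia are the resident macrophages of the brain, and they depend on signals from neighbouring cells. Neurons carry fractalkine, the product of Cx3cl1, on their surface, where proteases can release it, and microglia read it through the receptor CX3CR1, a pair known for restraining microglial activity. The kinase receptor CSF1R, which binds both IL-34 from neurons and CSF1 from glia, keeps microglia alive. TREM2 is a microglial receptor for lipids and lipoproteins, apolipoprotein E among them, and it signals through the adaptor DAP12, the product of Tyrobp.

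The promoters of the fractalkine pair and of Trem2 are shown first, because Cx3cl1 and Cx3cr1 separated the groups in opposite directions and Trem2 had the smallest p among the 8 genes in PHL + CMS against Veh + CMS. RefSeq windows of 300 bases, reaching 250 bases before and 50 bases after the annotated start in the rat assembly GRCr8, were matched for 5 of the 8 genes (Cx3cl1, Cx3cr1, Csf1r, Trem2 and Apoe, the last with 3 windows), and not for Il34, Csf1 and Tyrobp. Each is written 5′ to 3′ on the strand of the gene. Capitals mark GAGGAA or its reverse complement TTCCTC, the core letters read by the myeloid factor PU.1, and TATAAA, the TATA box.
Cx3cl1, chr19:10242771-10243070, minus strand: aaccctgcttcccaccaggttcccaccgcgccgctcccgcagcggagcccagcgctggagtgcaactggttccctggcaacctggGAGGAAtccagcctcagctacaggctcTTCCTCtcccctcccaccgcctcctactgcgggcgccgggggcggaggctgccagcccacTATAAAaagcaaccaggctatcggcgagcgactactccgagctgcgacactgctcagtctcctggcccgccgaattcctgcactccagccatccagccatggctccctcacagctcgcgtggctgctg
Cx3cr1, chr8:128677017-128677316, minus strand: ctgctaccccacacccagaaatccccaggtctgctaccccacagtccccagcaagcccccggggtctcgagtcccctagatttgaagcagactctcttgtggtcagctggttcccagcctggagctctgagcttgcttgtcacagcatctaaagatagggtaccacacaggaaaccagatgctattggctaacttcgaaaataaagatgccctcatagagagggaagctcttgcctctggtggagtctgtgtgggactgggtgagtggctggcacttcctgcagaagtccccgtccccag
Trem2, chr9:20151730-20152029, minus strand: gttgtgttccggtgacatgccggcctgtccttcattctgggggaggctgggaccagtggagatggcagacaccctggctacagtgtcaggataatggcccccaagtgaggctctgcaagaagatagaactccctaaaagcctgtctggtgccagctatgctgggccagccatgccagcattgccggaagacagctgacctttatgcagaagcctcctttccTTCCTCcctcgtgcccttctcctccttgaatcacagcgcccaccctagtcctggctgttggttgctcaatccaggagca
The Cx3cl1 window held GAGGAA 165 bases before the start, its reverse complement 138 bases before the start, and TATAAA 78 bases before the start. The Trem2 window held the reverse complement 29 bases before the start, and the Cx3cr1 window held none of these letters. In the Csf1r window, which is not printed, the reverse complement stood 229 and 95 bases before the start. Of the 3 Apoe windows, also not printed, 1 held the reverse complement, 108 bases before the start. GAGGAA occurred on one strand or the other in 27.6% of 33469 rat windows of this length, and TATAAA in 14.2%, so a match describes the letters and is no evidence of binding.

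The levels of the 8 genes differed widely. FPKM relate fragments to gene length and so allow levels to be compared between genes. Over the 9 libraries Apoe averaged 1743 FPKM, above 99.9% of the tested genes, and Cx3cl1 averaged 189 FPKM, above 97.7%. Il34 (30.8 FPKM), Csf1r (27.1 FPKM), Tyrobp (17.4 FPKM), Cx3cr1 (14.5 FPKM) and Trem2 (9.53 FPKM) followed, and Csf1 was lowest at 2.79 FPKM, above 27.8% of the tested genes. In mean level Cx3cl1 therefore stood far above Cx3cr1, and Csf1 stood below the receptor it shares with Il34. Il34 stood slightly above Csf1r over the 9 libraries, but below it in mean level in Veh + CMS (26.8 against 31.5 FPKM). The only library with Il34 below Csf1r was Veh + CMS replicate 2 (20.9 against 36.3 FPKM). Each gene was above the next in the order of mean level in 9 of 9 libraries, with 2 exceptions. Il34 exceeded Csf1r in 8 of 9 and Tyrobp exceeded Cx3cr1 in 8 of 9, and the order of these 2 pairs of neighbours was not tested. The ratio of the highest to the lowest library was largest for Tyrobp (2.23) and Cx3cr1 (2.08) and smallest for Apoe and Cx3cl1 (1.52 each).

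**Figure D1:**
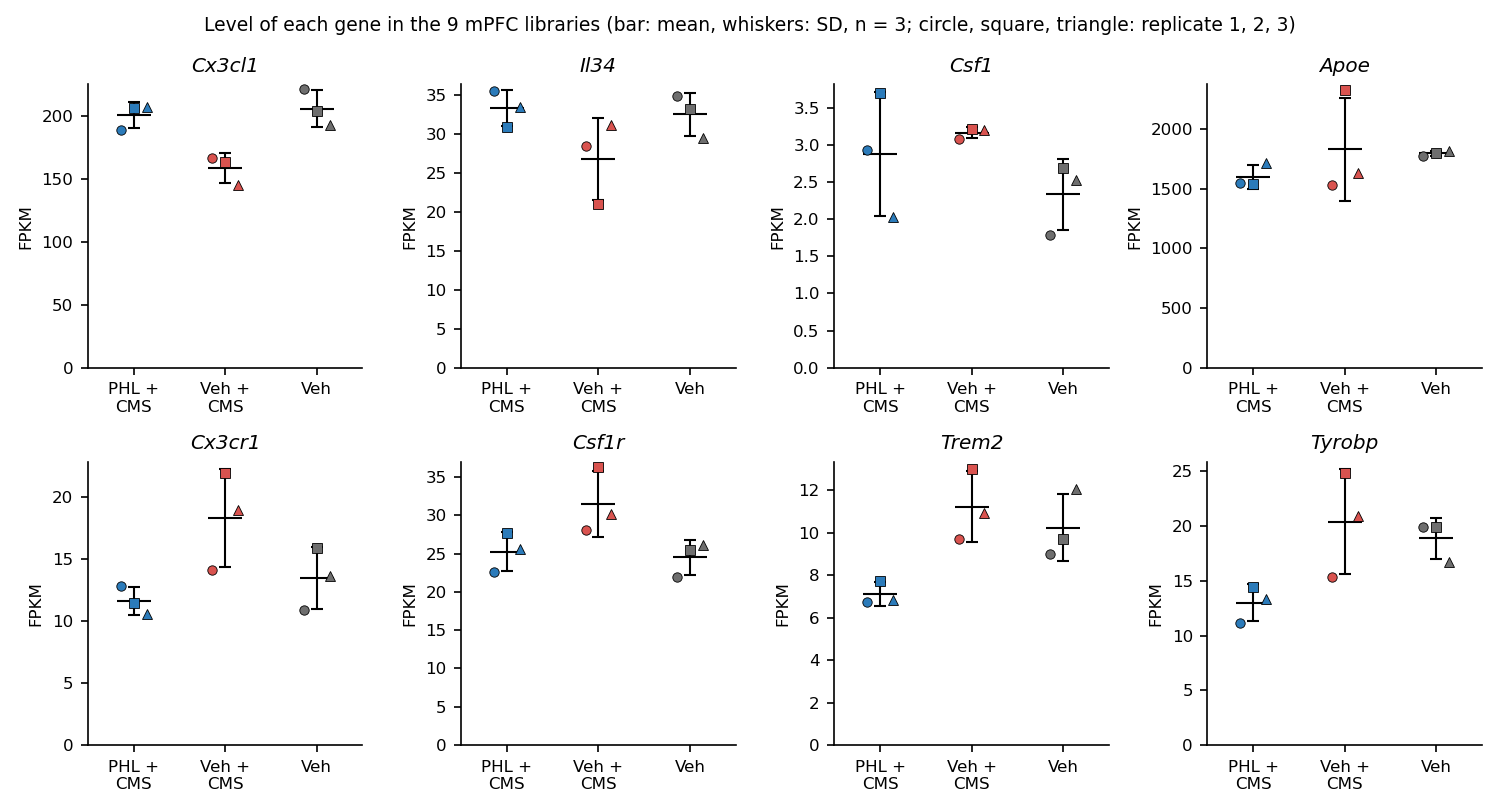
FPKM of the 8 genes (vertical axes, each from 0) in the PHL + CMS, Veh + CMS and Veh groups; each symbol is 1 library, the horizontal bar is the mean and the whiskers the SD (n = 3). Cx3cl1 was lowest in the 3 Veh + CMS libraries, and Trem2 and Tyrobp were lowest in the 3 PHL + CMS libraries.

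Before the comparisons, the libraries themselves need a word. They held 14859419 to 16960004 reads on genes in PHL + CMS, 15198823 to 16328673 in Veh + CMS and 13913639 to 16280963 in Veh. Mitochondrial genes took 6.96% to 9.09% of these reads in PHL + CMS, 9.67% to 13.9% in Veh + CMS and 9.74% to 10.6% in Veh. The library with 13.9%, Veh + CMS replicate 2, was the highest of all 9 for Cx3cr1, Csf1r, Trem2, Tyrobp and Apoe and the lowest for Il34, and values without it are given where they matter. Markers of microglia were present in every library, with sums over 24 markers of 397 to 458 FPKM in PHL + CMS, 485 to 607 FPKM in Veh + CMS and 419 to 501 FPKM in Veh. Markers of other cells also differed between the groups. The 12 markers of oligodendrocytes and myelin summed to 3384 to 7342 FPKM in PHL + CMS, 8564 to 11574 FPKM in Veh + CMS and 2501 to 3141 FPKM in Veh, and the 7 markers of striatum, which lies beneath the mPFC, to 172 to 193 FPKM in PHL + CMS, 269 to 667 FPKM in Veh + CMS and 157 to 474 FPKM in Veh. The 7 markers of excitatory neurons summed to 2421 to 2722 FPKM in PHL + CMS, 1849 to 2729 FPKM in Veh + CMS and 2355 to 3184 FPKM in Veh. In tissue, fewer cells of a type and less RNA per cell cannot be told apart, and the makeup of the sample cannot be separated from the group.

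The mean levels of fractalkine and its receptor differed in opposite directions. Cx3cl1 was lower in Veh + CMS than in Veh, and Cx3cr1 was lowest on average in PHL + CMS. Cx3cl1 (ENSRNOG00000016326, chromosome 19, 10644244 to 10653800 in Rnor_6.0, minus strand) encodes a chemokine held on a mucin stalk, and it had 189, 207 and 207 FPKM in PHL + CMS libraries, 167, 164 and 146 FPKM in Veh + CMS libraries, and 222, 204 and 193 FPKM in Veh libraries. All 3 Veh + CMS libraries lay below all 6 others, which overlapped each other. The log2 fold change, on the log2(FPKM + 0.1) scale as all below, was 0.34 (SE 0.08) in PHL + CMS against Veh + CMS with an adjusted p of 0.158 in limma, a linear model over all tested genes. In Veh + CMS against Veh it was -0.38 (SE 0.08) with an adjusted p of 0.0444 in limma, a fall to 0.771 of the Veh level and the only one of the 24 tests of the 8 genes to pass the threshold of 0.05. In PHL + CMS against Veh it was -0.035 (SE 0.08, 95% interval -0.22 to 0.15). The call in Veh + CMS against Veh was lost when any 1 of the 6 libraries was left out (log2 fold change -0.42 to -0.31, limma adjusted p = 0.0519 to 0.151), with limma on quantile-normalized values (-0.23, adjusted p = 0.152), and with the mean of the myelin markers as a covariate (-0.40, adjusted p = 0.998).

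Cx3cr1 (ENSRNOG00000018509, chromosome 8, 128740756 to 128754514, minus strand) encodes the G protein-coupled fractalkine receptor, which within the brain marks microglia. Its levels were 12.8, 11.5 and 10.5 FPKM in PHL + CMS, 14.1, 22.0 and 19.0 FPKM in Veh + CMS, and 10.9, 15.9 and 13.6 FPKM in Veh. The PHL + CMS libraries lay below the Veh + CMS libraries and overlapped the Veh libraries. The limma log2 fold change was -0.64 (SE 0.18, adjusted p = 0.177) in PHL + CMS against Veh + CMS, 0.43 (SE 0.18, adjusted p = 0.204) in Veh + CMS against Veh, and -0.20 (SE 0.18, adjusted p = 0.731) in PHL + CMS against Veh. Without Veh + CMS replicate 2 the first was -0.50 and the second 0.29. The study singled out Cx3cr1 and Csf1r on these samples, so neither is independent evidence of its direction.

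The ligands of CSF1R differed from each other. Il34 (ENSRNOG00000017602, chromosome 19, 40855433 to 40904121, plus strand), the main neuronal ligand of CSF1R in cortex, had 35.5, 30.9 and 33.4 FPKM in PHL + CMS, 28.4, 20.9 and 31.1 FPKM in Veh + CMS, and 34.8, 33.2 and 29.4 FPKM in Veh. The groups overlapped in each comparison. The log2 fold change was 0.33 (SE 0.14, adjusted p = 0.308 by limma) in PHL + CMS against Veh + CMS and -0.29 (SE 0.14, adjusted p = 0.269 by limma) in Veh + CMS against Veh, but 0.16 and -0.12 without Veh + CMS replicate 2. An antisense model overlaps Il34 and was listed at 0 in all 9 libraries. Csf1 (ENSRNOG00000018659, chromosome 2, 210522375 to 210550560, minus strand), the ligand made by glia, had 2.93, 3.69 and 2.02 FPKM in PHL + CMS, 3.087, 3.211 and 3.202 FPKM in Veh + CMS, and 1.79, 2.69 and 2.52 FPKM in Veh. The 3 Veh + CMS libraries were nearly equal and above the Veh libraries, while the PHL + CMS libraries spread over both. Its log2 fold change was -0.17 (SE 0.23, adjusted p = 0.759 by limma) in PHL + CMS against Veh + CMS and 0.45 (SE 0.23, adjusted p = 0.300 by limma) in Veh + CMS against Veh. It rested on 116 to 237 reads per library, and the 95% intervals were -0.70 to 0.35 and -0.079 to 0.97.

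Csf1r (ENSRNOG00000018414, chromosome 18, 56414488 to 56458300, plus strand) encodes the receptor tyrosine kinase on which microglial survival depends. It had 22.6, 27.7 and 25.6 FPKM in PHL + CMS, 28.0, 36.3 and 30.2 FPKM in Veh + CMS, and 21.9, 25.4 and 26.2 FPKM in Veh. The Veh + CMS libraries lay above all 6 others. The limma log2 fold change was -0.31 (SE 0.12, adjusted p = 0.261) in PHL + CMS against Veh + CMS, 0.36 (SE 0.12, adjusted p = 0.130) in Veh + CMS against Veh, and 0.042 (SE 0.12, 95% interval -0.23 to 0.31) in PHL + CMS against Veh. Without Veh + CMS replicate 2 the first was -0.21 (adjusted p = 0.499), and with the myelin covariate the first was -0.072 and the second -0.018.

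Trem2 and its adaptor had another pattern, in which the mean level was lowest in PHL + CMS, although no test of either gene passed after adjustment. Trem2 (ENSRNOG00000013578, chromosome 9, 14611561 to 14618013, minus strand) had 6.74, 7.74 and 6.85 FPKM in PHL + CMS, 9.71, 13.03 and 10.9 FPKM in Veh + CMS, and 8.996, 9.71 and 12.05 FPKM in Veh. Every PHL + CMS library lay below every other library, while Veh + CMS and Veh overlapped. The limma log2 fold change was -0.64 (SE 0.14, adjusted p = 0.149) in PHL + CMS against Veh + CMS, -0.51 (SE 0.14, adjusted p = 0.292) in PHL + CMS against Veh, and 0.13 (SE 0.14, 95% interval -0.19 to 0.45) in Veh + CMS against Veh. Leaving out 1 library at a time kept the first between -0.74 and -0.53 (adjusted p = 0.0785 to 0.434) and the second between -0.60 and -0.39. With the myelin covariate they were -0.33 and -0.69 (adjusted p = 0.996 and 0.642).

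Tyrobp (ENSRNOG00000020845, chromosome 1, 88875375 to 88879303, plus strand) encodes DAP12, through which TREM2 and other myeloid receptors recruit the kinase SYK. It had 11.1, 14.4 and 13.4 FPKM in PHL + CMS, 15.3, 24.9 and 20.9 FPKM in Veh + CMS, and 19.95, 19.95 and 16.7 FPKM in Veh. Again the 3 PHL + CMS libraries lay below all 6 others. The limma log2 fold change was -0.63 (SE 0.17, adjusted p = 0.171) in PHL + CMS against Veh + CMS, -0.54 (SE 0.17, adjusted p = 0.355) in PHL + CMS against Veh, and 0.088 (SE 0.17, 95% interval -0.31 to 0.48) in Veh + CMS against Veh. Without Veh + CMS replicate 2 the first was -0.47, and with the myelin covariate the first was -0.33 and the second -0.70. Trem2 and Tyrobp rested on 119 to 218 and 118 to 217 reads per library.

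Apoe (ENSRNOG00000018454, chromosome 1, 80612895 to 80617057, minus strand), the lipid carrier that astrocytes make in quantity and that microglia can induce, had 1544, 1541 and 1718 FPKM in PHL + CMS, 1532, 2327 and 1631 FPKM in Veh + CMS, and 1776, 1800 and 1817 FPKM in Veh. The PHL + CMS libraries lay just below the narrow range of the Veh libraries, and the Veh + CMS libraries spread on both sides of it. Its log2 fold change was -0.17 (SE 0.15, 95% interval -0.51 to 0.17) in PHL + CMS against Veh + CMS and -0.17 (SE 0.15, 95% interval -0.51 to 0.17) in PHL + CMS against Veh. In Veh + CMS against Veh the 95% interval of the log2 fold change was -0.34 to 0.34, and the single library at 2327 FPKM sets its width: without Veh + CMS replicate 2 the value was -0.19, and in PHL + CMS against Veh + CMS it was 0.016.

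**Figure D2:**
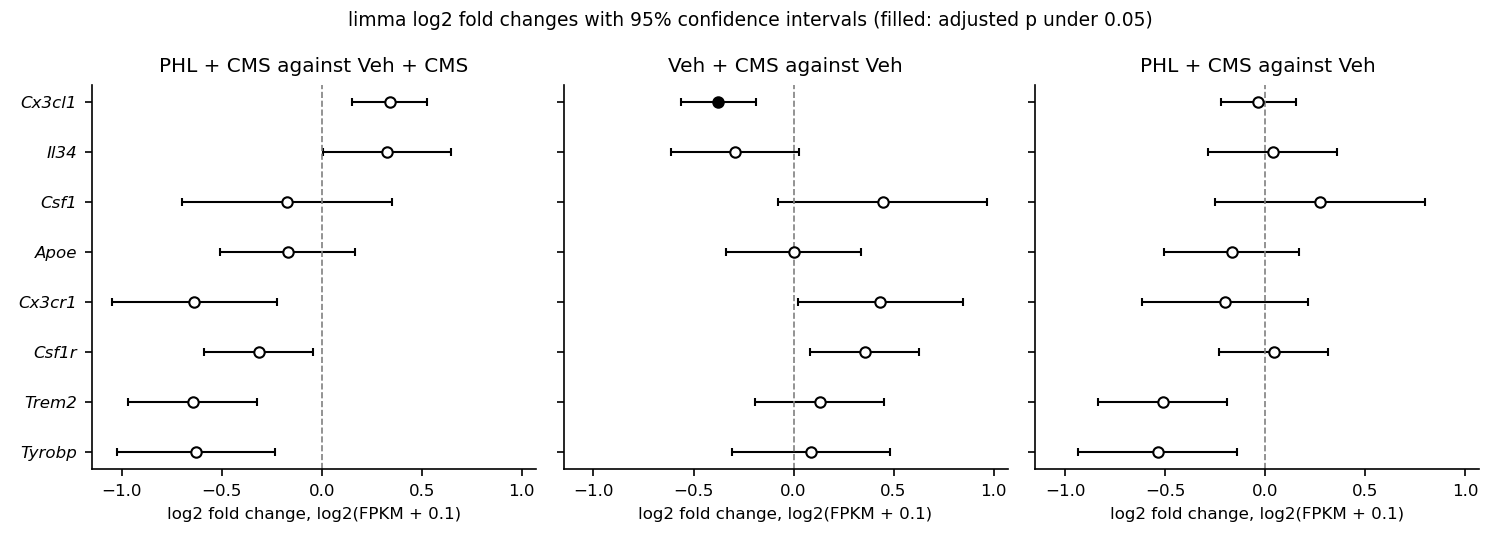
Log2 fold changes on the log2(FPKM + 0.1) scale (horizontal axes) of the 8 genes in the 3 comparisons, with 95% confidence intervals from limma; a filled symbol marks an adjusted p under 0.05. Cx3cl1 in Veh + CMS against Veh is the only filled symbol, and in PHL + CMS against Veh + CMS the intervals of Cx3cr1, Csf1r, Trem2 and Tyrobp lie below 0.

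Counted together, the 8 genes are to be read against all genes. In PHL + CMS against Veh + CMS, 0 of 8 passed the adjusted threshold in limma, where 0% of all tested genes did and the lowest adjusted p of any gene was 0.136; voom on the recovered reads also called 0 of 8. At an unadjusted p under 0.05, 4 of 8 were lower (Cx3cr1, Csf1r, Trem2 and Tyrobp), against 8.22% of all genes, and 2 of 8 were higher (Cx3cl1 and Il34), against 7.51%. Groups that did not overlap were seen for 4 of 8 lower genes, against 10.7% of all genes, and for 1 of 8 higher (Cx3cl1), against 10.5%. The median log2 fold change of the 8 was -0.24, beside 0.0077 over all genes. In Veh + CMS against Veh, 1 of 8 passed (Cx3cl1, lower), against 3.79% of all genes. At an unadjusted p, 1 of 8 was lower, against 11.3%, and 2 of 8 were higher (Cx3cr1 and Csf1r), against 10.9%; without overlap, 1 of 8 was lower, against 13.5%, and 2 of 8 were higher (Csf1 and Csf1r), against 14.1%. The median of the 8 was 0.11, beside -0.016. In PHL + CMS against Veh, 0 of 8 passed in limma and in voom, against 0% of all genes, 2 of 8 were lower at an unadjusted p (Trem2 and Tyrobp), against 5.78%, and 3 of 8 were lower without overlap (with Apoe), against 8.78%. The median of the 8 was -0.10, beside 0.0033 over all genes. The comparisons share groups, so a low value in PHL + CMS or a high one in Veh + CMS enters 2 of them. The counts of 1 and 2 in Veh + CMS against Veh are near these backgrounds. The 8 genes were chosen with earlier results of these data known, so a share above background is not independent of that choice. The 4 lower genes in PHL + CMS against Veh + CMS are more than their background, a description to which no test was attached. They are the microglial genes of the 8, and 12 of 24 other microglial markers were also lower there at an unadjusted p. Such a share is therefore not particular to these 4.

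Ratios within a library do not depend on the scaling between libraries, and they set each ligand against its receptor. The level of Cx3cl1 over that of Cx3cr1 averaged 17.3 in PHL + CMS, 8.79 in Veh + CMS and 15.4 in Veh (geometric means, n = 3 each). In single libraries it was 14.7 to 19.6 in PHL + CMS, 7.47 to 11.8 in Veh + CMS and 12.8 to 20.3 in Veh, so that the Veh + CMS libraries lay below all others. The difference in log2 ratio was 0.98 (SE 0.25) in PHL + CMS against Veh + CMS and -0.81 (SE 0.29) in Veh + CMS against Veh, with p = 0.1 in each by a two-sided exact permutation test, the smallest that 3 libraries against 3 allow, and 0.2 after adjustment over the 6 ratios. In PHL + CMS against Veh it was 0.17 (SE 0.24, p = 0.5 by the exact permutation test). The order of the groups was the same without Veh + CMS replicate 2, with differences of 0.86 and -0.70.

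The ratios of Il34 to its receptor and to Csf1 were lowest in Veh + CMS. Il34 over Csf1r was 1.32 in PHL + CMS, 0.844 in Veh + CMS and 1.32 in Veh, and again the Veh + CMS libraries (0.577 to 1.03) lay below the PHL + CMS libraries (1.12 to 1.57) and the Veh libraries (1.12 to 1.59). The differences of the log2 ratio were 0.64 (SE 0.31) in PHL + CMS against Veh + CMS and -0.65 (SE 0.31) in Veh + CMS against Veh (exact permutation p = 0.1 each, adjusted 0.2), and 0.37 and -0.38 without Veh + CMS replicate 2. Il34 over Csf1, the balance of the ligands, was 11.9 in PHL + CMS, 8.35 in Veh + CMS and 14.1 in Veh. It separated Veh + CMS from Veh without overlap (-0.76, SE 0.30, exact permutation p = 0.1, adjusted 0.2), while PHL + CMS overlapped both. Csf1 over Csf1r was 0.111, 0.101 and 0.0940 in PHL + CMS, Veh + CMS and Veh, and overlapped in every comparison.

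Apoe over Trem2 was highest in PHL + CMS, at 225, against 161 in Veh + CMS and 177 in Veh. The PHL + CMS libraries (199 to 251) lay above the Veh + CMS libraries (149 to 179) and the Veh libraries (151 to 197), with log2 differences of 0.48 (SE 0.12) and 0.35 (SE 0.15) and an exact permutation p of 0.1 in each. Adjusted over the 6 ratios, these p-values were 0.2 in PHL + CMS against Veh + CMS and 0.6 in PHL + CMS against Veh. Trem2 over Tyrobp, receptor over adaptor, was 0.550 in PHL + CMS, 0.558 in Veh + CMS and 0.541 in Veh. These means differed by less than the spread between libraries, and the SE of the log2 difference was 0.12 to 0.23, so that the receptor and the adaptor were low together in PHL + CMS.

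**Figure D3:**
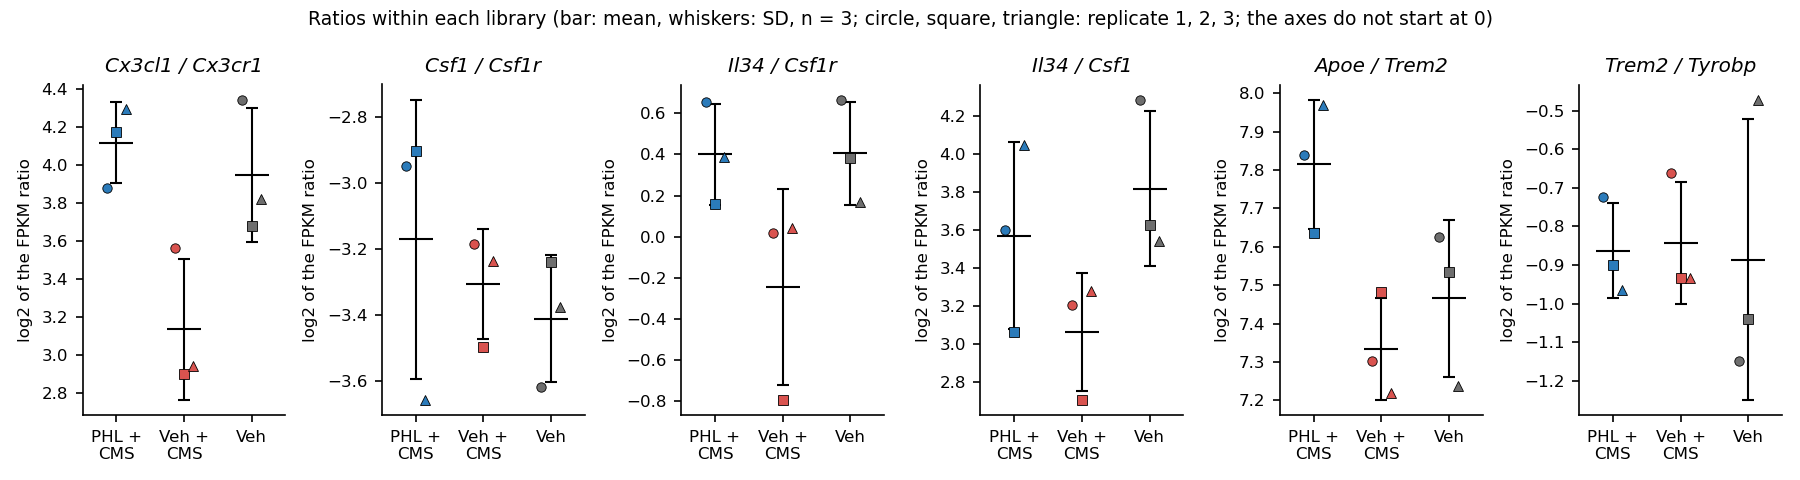
Log2 of 6 FPKM ratios (vertical axes, which do not start at 0) in each library of the PHL + CMS, Veh + CMS and Veh groups; symbols are libraries, bars means and whiskers SD (n = 3). The Veh + CMS libraries lie below all others for Cx3cl1 over Cx3cr1 and for Il34 over Csf1r, and the PHL + CMS libraries lie above all others for Apoe over Trem2.

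The microglial genes were then set beside other markers of microglia in the same library, by subtracting the mean log2 level of 24 markers such as P2ry12 and Tmem119. Trem2 and Tyrobp were low in PHL + CMS by this measure as well. Trem2 stood at 0.018, -0.021 and -0.077 relative to the markers in PHL + CMS libraries, at 0.24, 0.30 and 0.20 in Veh + CMS libraries, and at 0.30, 0.28 and 0.60 in Veh libraries. The difference was -0.27 (SE 0.04) in PHL + CMS against Veh + CMS and -0.42 (SE 0.11) in PHL + CMS against Veh, without overlap and with p = 0.1 in each by the exact permutation test, the smallest possible. Tyrobp stood at 0.73, 0.87 and 0.88 in PHL + CMS, at 0.89, 1.23 and 1.13 in Veh + CMS, and at 1.44, 1.31 and 1.07 in Veh. Its differences were -0.26 (SE 0.11) and -0.45 (SE 0.12), again without overlap and with an exact permutation p of 0.1, though the closest libraries, 0.88 and 0.89, nearly met. Adjusted over the 4 genes, these p-values were 0.2 in PHL + CMS against Veh + CMS and 0.133 in PHL + CMS against Veh. Leaving out 1 library at a time kept Trem2 between -0.30 and -0.25 and Tyrobp between -0.35 and -0.18 in PHL + CMS against Veh + CMS.

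The receptors of fractalkine and CSF1 were measured in the same way. Csf1r stood at 1.78 in PHL + CMS, 1.73 in Veh + CMS and 1.65 in Veh relative to the markers (SD 0.03, 0.06 and 0.07, n = 3 each). Its difference was 0.056 (SE 0.04, exact permutation p = 0.3) in PHL + CMS against Veh + CMS, and 0.13 (SE 0.04, exact permutation p = 0.1, adjusted 0.133) in PHL + CMS against Veh, where the groups did not overlap. Cx3cr1 stood at 0.67 in PHL + CMS, 0.94 in Veh + CMS and 0.78 in Veh (SD 0.23, 0.15 and 0.20). Its difference in PHL + CMS against Veh + CMS, -0.27 (SE 0.16), was of the same size as those of Trem2 and Tyrobp and stayed between -0.40 and -0.20 with 1 library left out, but its SE was larger, the groups overlapped and the exact permutation p was 0.2. Against Veh, PHL + CMS differed by -0.11 (SE 0.18, exact permutation p = 0.5). The 24 markers themselves had a median log2 fold change of -0.37 in PHL + CMS against Veh + CMS, with 22 of 24 below 0. Of them 12 were lower at an unadjusted p under 0.05, against 8.22% of all genes, and 0 passed the adjusted threshold. Their median was 0.26 in Veh + CMS against Veh, with 23 of 24 above 0 and 0 past it, against 3.79% of all genes. In PHL + CMS against Veh the median was -0.060, with 15 of 24 below 0, 9 above 0 and 0 past the adjusted threshold. There 2 were lower at an unadjusted p, against 5.78% of all genes, and 5 were lower without overlap, against 8.78%. C1qa, a complement component, Fcer1g, an adaptor of Fc receptors, and Ly86, a partner of a Toll-like receptor, were among these 5, at -0.38 (SE 0.11), -0.42 (SE 0.17) and -0.49 (SE 0.23). In these 3 genes, as in Trem2 and Tyrobp, every PHL + CMS library lay below every other library. Markers of macrophages at the brain's borders, which can also express Trem2 and Tyrobp, were sparse, with 4 of 8 tested and sums of 5.63 to 10.7 FPKM in PHL + CMS, 7.02 to 10.8 FPKM in Veh + CMS and 4.74 to 9.73 FPKM in Veh, and their part in the result was not tested.

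The neuronal ligands were set beside 7 markers of excitatory neurons in the same way, a measure chosen after the values were seen. Cx3cl1 stood at 0.49, 0.73 and 0.59 in PHL + CMS, at 0.67, 0.67 and 0.48 in Veh + CMS, and at 0.69, 0.69 and 0.77 in Veh. PHL + CMS and Veh + CMS no longer separated, with a difference of -0.0042 (SE 0.09, exact permutation p = 1), whereas Veh + CMS stayed below Veh by -0.11 (SE 0.07, exact permutation p = 0.1, adjusted 0.2 over the 2 genes), which was 0.0069 when the median of the markers was taken in place of the mean. Il34 stood at -1.99, -1.97 and -1.95 on average in PHL + CMS, Veh + CMS and Veh, with SE of the differences of 0.04 to 0.17 and overlap in every comparison. The 7 markers had a median log2 fold change of 0.41 in PHL + CMS against Veh + CMS, all above 0, and of -0.20 in Veh + CMS against Veh, all below 0, with 0 of 7 past the adjusted threshold in each.

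**Figure D4:**
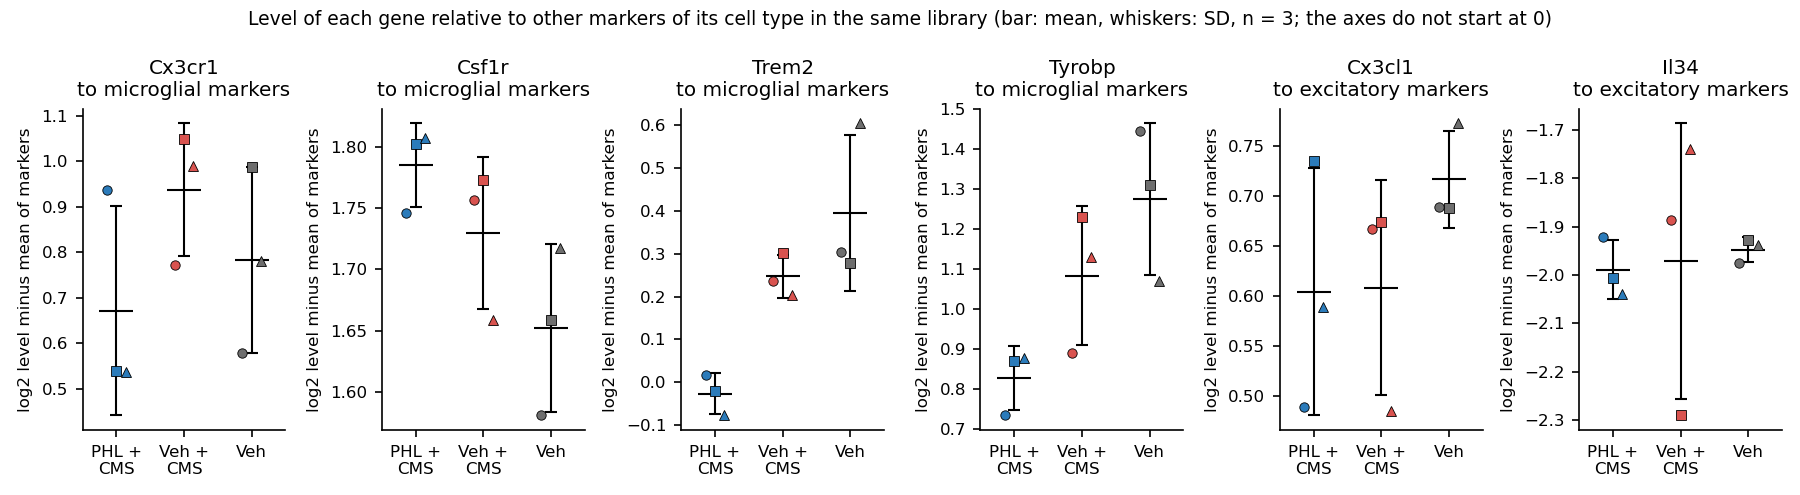
Log2(FPKM + 0.1) of a gene minus the mean over 24 microglial markers (Cx3cr1, Csf1r, Trem2 and Tyrobp) or over 7 excitatory neuron markers (Cx3cl1 and Il34) in each library (vertical axes, which do not start at 0; bars are means and whiskers SD, n = 3). Trem2 and Tyrobp lie lowest in the 3 PHL + CMS libraries, and Cx3cl1 and Il34 overlap between PHL + CMS and Veh + CMS.

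Genes that act with the 8 were taken from lists by function. Of the genes that shed fractalkine or carry its signal, 8 of 9 were tested, and 1 rose in Veh + CMS against Veh. This was Adam17, the metalloprotease that cleaves fractalkine, TREM2 and CSF1R from the cell surface. It had 6.34, 9.42 and 7.16 FPKM in PHL + CMS, 8.66, 10.3 and 10.97 FPKM in Veh + CMS, and 6.06, 5.98 and 6.52 FPKM in Veh. All Veh + CMS libraries lay above all Veh libraries, and the log2 fold change was 0.68 (SE 0.15, adjusted p = 0.0462 by limma). The call was lost when any 1 of the 6 libraries was left out (0.61 to 0.77, limma adjusted p = 0.0638 to 0.156), with no filter (adjusted p = 0.0694), with quantile normalization (adjusted p = 0.0606), without a variance trend (adjusted p = 0.0773) and with a replicate block (adjusted p = 0.0750), and the value was -0.072 with the myelin covariate. Adam17 stood at -0.39 (SE 0.15, adjusted p = 0.264 by limma) in PHL + CMS against Veh + CMS. Ctss, the microglial cathepsin S that also cleaves fractalkine, stood at -0.35 (SE 0.12) there and at 0.22 (SE 0.12) in Veh + CMS against Veh, and Adam10, the constitutive sheddase, at 0.19 (SE 0.08) in Veh + CMS against Veh. The median of the list was -0.049 in PHL + CMS against Veh + CMS, with 5 of 8 below 0, and 0.10 in Veh + CMS against Veh, with 5 of 8 above 0.

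Of the 15 genes of CSF1R signalling and its control, all tested, 0 passed in each comparison, and the medians were 0.093 in PHL + CMS against Veh + CMS, 0.020 in Veh + CMS against Veh and 0.12 in PHL + CMS against Veh. Irf8, a transcription factor that microglia need, had 2.02, 1.81 and 1.45 FPKM in PHL + CMS, 3.03, 3.80 and 2.83 FPKM in Veh + CMS, and 2.38, 1.89 and 2.69 FPKM in Veh. Its log2 fold change was -0.84 (SE 0.20, adjusted p = 0.157 by limma) in PHL + CMS against Veh + CMS, the largest of the list by size, while Grb2, an adaptor of receptor kinases, stood at 0.20 (SE 0.08). Ptprz1, a phosphatase receptor for IL-34 found on glial precursors, stood at 0.48 (SE 0.17) in Veh + CMS against Veh.

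For signalling through TREM2 and DAP12, 15 of 17 genes were tested, and Adam17 was the only 1 to pass, in Veh + CMS against Veh. The medians were -0.081 in PHL + CMS against Veh + CMS, with 12 of 15 below 0, and 0.27 in Veh + CMS against Veh, with 13 of 15 above 0. Ptpn6, the phosphatase SHP-1 that opposes DAP12, had 2.13, 1.90 and 2.46 FPKM in PHL + CMS, 2.88, 3.79 and 3.54 FPKM in Veh + CMS, and 2.54, 2.99 and 2.87 FPKM in Veh. It followed Trem2 and Tyrobp in that the PHL + CMS libraries lay below all 6 others, with a log2 fold change of -0.63 (SE 0.16, adjusted p = 0.166 by limma) in PHL + CMS against Veh + CMS and -0.36 (SE 0.16, adjusted p = 0.469 by limma) in PHL + CMS against Veh. Cd33, an inhibitory receptor of microglia, stood at -0.46 (SE 0.24) in PHL + CMS against Veh + CMS, and Grn, the lysosomal protein progranulin, at 0.19 (SE 0.08) in Veh + CMS against Veh.

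Among 19 genes that microglia are known to induce downstream of TREM2 in mice, 13 were tested and Cd9 was the only 1 to pass. Cd9, a tetraspanin that oligodendrocytes also express, had 71.6, 124 and 67.3 FPKM in PHL + CMS, 143, 172 and 159 FPKM in Veh + CMS, and 58.5, 59.4 and 81.2 FPKM in Veh. It rose by 1.26 (SE 0.22, adjusted p = 0.0291 by limma) in Veh + CMS against Veh and stood at -0.90 (SE 0.22, adjusted p = 0.160 by limma) in PHL + CMS against Veh + CMS. Its call held without Veh replicate 3 and was lost without any 1 of the other 5 libraries (1.18 to 1.33, limma adjusted p up to 0.122), without a variance trend (adjusted p = 0.0622) and with a replicate block (adjusted p = 0.0534), and with the myelin covariate the value was -0.12. Gpnmb, a lysosomal glycoprotein of lipid-laden macrophages, stood at 0.66 (SE 0.23), and Ctsb, a lysosomal protease, at -0.14 (SE 0.07) in Veh + CMS against Veh. The medians of the list were -0.14 in PHL + CMS against Veh + CMS and 0.12 in Veh + CMS against Veh. Fth1, on the same list, was listed at 0 in all 9 libraries and could not be read.

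Of 19 genes that load apolipoprotein E with lipid or bind it, 18 were tested, and Apod, an apolipoprotein of oligodendrocytes and astrocytes, was the only 1 to pass. It had 134, 215 and 129 FPKM in PHL + CMS, 262, 430 and 302 FPKM in Veh + CMS, and 116, 96.4 and 126 FPKM in Veh. The log2 fold change was 1.53 (SE 0.23, adjusted p = 0.0263 by limma) in Veh + CMS against Veh and -1.06 (SE 0.23, adjusted p = 0.149 by limma) in PHL + CMS against Veh + CMS. Its call held without Veh replicate 3 and was lost without any 1 of the other 5 libraries (limma adjusted p up to 0.116), without a variance trend (adjusted p = 0.0591) and with a replicate block (adjusted p = 0.0506), and the value was 0.17 with the myelin covariate. Abca1, the transporter that loads lipid onto apolipoprotein E, had 2.55, 2.59 and 2.36 FPKM in PHL + CMS, 3.26, 5.34 and 3.21 FPKM in Veh + CMS, and 2.502, 2.115 and 2.499 FPKM in Veh, with log2 fold changes of -0.60 (SE 0.20) in PHL + CMS against Veh + CMS and 0.67 (SE 0.20) in Veh + CMS against Veh. Nr1h3, the liver X receptor that induces Abca1 and Apoe, stood at 0.75 (SE 0.21, adjusted p = 0.0749 by limma) in Veh + CMS against Veh. The medians were -0.097 in PHL + CMS against Veh + CMS and 0.15 in Veh + CMS against Veh, with 14 of 18 above 0 in the second.

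Other ligand pairs that join neurons and microglia, such as Cd200, Cd47 and Tgfb1 with their receptors, gave 0 called of 16 tested in each comparison, with a median of -0.14 in PHL + CMS against Veh + CMS, 0.15 in Veh + CMS against Veh and 0.013 in PHL + CMS against Veh. Tgfbr1, a receptor of TGF-beta that microglia need for their identity, had 4.47, 6.39 and 4.79 FPKM in PHL + CMS, 6.23, 9.08 and 7.35 FPKM in Veh + CMS, and 4.56, 5.21 and 5.24 FPKM in Veh, with log2 fold changes of -0.52 (SE 0.17) and 0.57 (SE 0.17) in the first 2 comparisons. Gas6, a ligand of the receptors Axl and Mertk, stood at -0.25 (SE 0.10) in Veh + CMS against Veh, and Sirpa, the receptor of Cd47, at 0.20 (SE 0.08) in PHL + CMS against Veh + CMS.

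**Figure D5:**
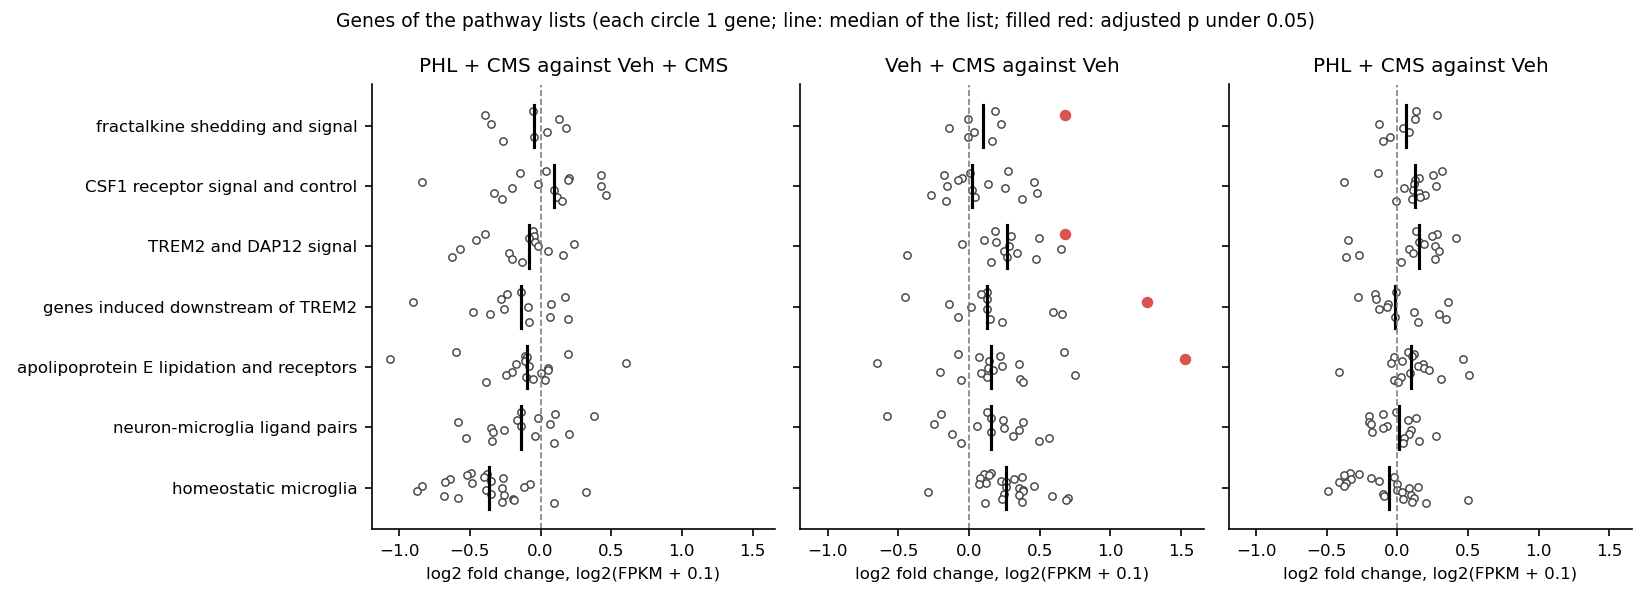
Log2 fold changes on the log2(FPKM + 0.1) scale (horizontal axes) of the tested genes of 7 lists in the 3 comparisons; each circle is 1 gene, the line the median of the list, and red a gene with an adjusted p under 0.05. Adam17, which is on 2 lists, Cd9 and Apod are red in Veh + CMS against Veh, and no gene of these lists is red in the other comparisons.

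Marker RNA of other cell types also shifted beside these lists. All 12 markers of oligodendrocytes and myelin rose in Veh + CMS against Veh (median 1.69), and all 12 were below 0 in PHL + CMS against Veh + CMS (median -1.06, 0 past the adjusted threshold). The 6 markers of oligodendrocyte precursors had a median of 1.13 in the first of these, with 3 called, and of -0.57 in the second, with 0 called. All 7 striatal markers were above 0 in Veh + CMS against Veh (median 0.92) and below 0 in PHL + CMS against Veh + CMS (median -1.26), with 0 called in each. Among 10 astrocyte markers Gfap, the intermediate filament of reactive astrocytes, rose by 1.02 (SE 0.19, adjusted p = 0.0308 by limma) in Veh + CMS against Veh, where the median of the list was 0.14. Among 6 interneuron markers Sst and Vip fell by 0.34 and 0.51 (limma adjusted p = 0.0417 and 0.0423) in Veh + CMS against Veh. In this comparison 3.79% of all tested genes passed. With 1 library left out, 0 or 1 gene passed, except without Veh replicate 3, where 493 did. With the replicate block 0 genes passed. These cell type markers were not followed singly in those fits. Vascular markers (5 tested, with Cldn5 listed at 0 in all 9 libraries), meningeal markers (5 tested) and blood markers (4 tested) had 0 called, with medians of -0.25, 0.89 and -0.064 in PHL + CMS against Veh + CMS and 0.28, -0.59 and -0.10 in Veh + CMS against Veh. The part of these cell types in the levels of the 8 genes was not tested. The fit with the myelin mean as a covariate cannot separate myelin from the group in comparisons with Veh + CMS. That mean, in log2 against Veh, was 1.47 to 1.83 in Veh + CMS, 0.15 to 1.25 in PHL + CMS and -0.18 to 0.16 in Veh. With this covariate 0 of all tested genes passed in any comparison, and so none of the 8. The SE of Cx3cl1 in Veh + CMS against Veh was then 0.21.

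Lastly, the genes whose levels ran most like each of the 8 were sought by Pearson correlation over the 9 libraries among 13595 other genes, as a description in which the points share their 3 groups. Cx3cl1 ran most like Retreg2, a receptor of reticulum turnover (r = 0.96), and Il34 most like Nsf, the ATPase of vesicle fusion (r = 0.99). Cx3cr1 ran most like Itm2b (r = 0.97), a membrane protein processed by furin, and Csf1r most like Megf10 (r = 0.98), an engulfment receptor of astrocytes, followed by Tgfbr1 (r = 0.97). Tyrobp ran most like C1qa (r = 0.95), the complement component that microglia make. Trem2 stood beside the ribosomal protein genes Rpl18 (r = 0.97), Rps3 (r = 0.95) and Rps18 (r = 0.94). Csf1 ran most like Sh3bp4 (r = 0.96), and Apoe like LOC100363268 (r = 0.96). With the group means removed, these values were 0.75 for Cx3cl1, 0.98 for Il34, 0.94 for Cx3cr1, 0.96 for Csf1r with Megf10 and 0.87 for Tyrobp. For Trem2 they were 0.88 with Rpl18, 0.80 with Rps3 and 0.79 with Rps18. All these genes were picked as the highest r among 13595 genes over 9 libraries, so high values are in part a result of the search.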

How the data were processed

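RNA of mPFC tissue was measured in 9 libraries, 3 in each group, and the groups were taken from the sample labels. The authors deposited 1 table of FPKM, with gene lengths and coordinates, and the submitters' processing notes name HISAT2 and Rnor_6.0. Versions, strand setting, counting tool and gene annotation: not given in the sources used here. FPKM multiplied by gene length gave whole multiples of 1 step for 100% of values (to within 1e-06), which were taken as reads. Genes with a mean of at least 0.5 FPKM were fitted with limma 3.58.1 in R 4.3.3 on log2(FPKM + 0.1), with all 3 groups, a variance trend and two-sided tests adjusted by Benjamini-Hochberg over the 16159 genes (threshold 0.05). Differences of ratios and of levels relative to markers were tested by two-sided exact permutation in Python 3.11.15 with scipy 1.17.1. The code was tested on simulated data.

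The 8 genes and the lists were chosen with earlier results of these data known. The text names the 8, up to 3 genes with the smallest p per list and comparison, and the genes most alike over the libraries. Alternatives were other pseudocounts, filters, scalings and moderation, a fit of 2 groups, library weights, voom on the recovered reads, a replicate block, the myelin mean as a covariate, the median of the markers, and each library left out. The levels relative to excitatory neuron markers and the alternatives for Adam17, Apod and Cd9 were chosen after seeing the data. Promoter letters are RefSeq's, from GRCr8, and share no coordinates with the Rnor_6.0 table. Ccr2, Sorl1, Cbr2, Pecam1 and Col1a2 were not analysed here.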

Additional observations from a re-analysis of the deposited data

How the results depend on the processing

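Of 480 recomputed log2 fold changes of the 8 genes, 443 kept direction and side of the threshold, 12 lost the call of Cx3cl1 and 25 turned direction, none of them from a call. In Veh + CMS against Veh the call of Cx3cl1 (1 of 8) became 0 with no filter, quantile normalization, only the 2 groups, moderation without trend, the replicate block, the myelin covariate and each library left out (range 0 to 0). The 613 genes called there became 301 with no filter, 2 without trend, 1315 with library weights, 0 under the replicate block and the myelin covariate, and 0 to 493 with a library left out. Of the fits with a library left out, only that without Veh replicate 3 called more than 1 gene. In PHL + CMS against Veh + CMS 0 genes became 6 with no filter, 1 without trend and 0 to 285 with a library left out (285 without PHL + CMS replicate 2, none of the 8 among them); in PHL + CMS against Veh 0 became 4 with no filter and 0 to 1. Same-numbered libraries deviated from their group means with correlations of -0.0974 to 0.0478 over 9 pairs, and differently numbered libraries with -0.081 to 0.126. With 3 libraries per group these values cannot show whether the numbers pair them. For these turns the cause was not tested.

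With the myelin covariate, Csf1 turned to 0.38 in PHL + CMS against Veh + CMS; Il34 to 0.11, Csf1 to -0.41, Csf1r to -0.018, Trem2 to -0.36, Tyrobp to -0.36, Apoe to -0.080, Adam17 to -0.072 and Cd9 to -0.12 in Veh + CMS against Veh; and Csf1 to -0.027 and Csf1r to -0.090 in PHL + CMS against Veh. With quantile normalization Apoe turned to 0.14 in PHL + CMS against Veh + CMS and -0.21 in Veh + CMS against Veh, and Cx3cl1 to 0.066 in PHL + CMS against Veh. Apoe in Veh + CMS against Veh was -0.097 with library weights and -0.012 with voom. With 1 library left out, PHL + CMS against Veh + CMS gave -0.37 to 0.053 for Csf1 and -0.29 to 0.016 for Apoe; Veh + CMS against Veh gave -0.070 to 0.28 for Tyrobp and -0.19 to 0.12 for Apoe; PHL + CMS against Veh gave -0.081 to 0.018 for Cx3cl1, -0.034 to 0.089 for Il34 and -0.036 to 0.12 for Csf1r.

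Of 306 recomputed ratios and levels relative to markers, 278 kept their direction and 28 did not. With a pseudocount of 1, the log2 ratio was 0.0089 for Trem2 over Tyrobp in PHL + CMS against Veh + CMS and -0.013 for Csf1 over Csf1r in Veh + CMS against Veh, the level relative to microglial markers -0.0028 for Csf1r and that relative to excitatory neuron markers 0.0016 for Cx3cl1, both in PHL + CMS against Veh + CMS. With the median of the markers, Csf1r was -0.0084 in PHL + CMS against Veh + CMS, Cx3cl1 0.0069 and Il34 0.091 in Veh + CMS against Veh, and Il34 0.035 in PHL + CMS against Veh. With 1 library left out, Trem2 over Tyrobp was -0.089 to 0.071, -0.087 to 0.25 and -0.11 to 0.23 in the 3 comparisons in the order above; in PHL + CMS against Veh, Il34 over Csf1r was -0.13 to 0.12 and Il34 over Csf1 -0.49 to 0.0056. Relative to excitatory neuron markers Cx3cl1 was -0.069 to 0.054 and Il34 -0.18 to 0.099 in PHL + CMS against Veh + CMS, and Il34 -0.14 to 0.13 in Veh + CMS against Veh. Genes of 116 to 237 reads per library (Csf1, Trem2, Tyrobp) were the least deeply measured of the 8.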
